A study of Danio rerio with 2 samples.

Results

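The genes described here are 2 cardiac natriuretic peptide genes, nppa and nppb, and 5 transcription factor genes that establish heart identity, nkx2.5, tbx5a, gata4, gata5 and hand2. They were picked by name, with their levels in these libraries already known, and all 7 were found among the 33733 genes of the deposited table. The table lists nppb under the clone name BX323876.2, and a reference table pairs its identifier, ENSDARG00000052958, with the symbol nppb. Zebrafish larvae homozygous for lri25 were compared with wild-type siblings of the same clutch at 5 days post fertilisation (dpf), both of the AB/TL strain. Each genotype was represented by 1 library of total RNA from the whole bodies of 20 pooled larvae. Which gene carries the lri25 lesion is not stated in the labels, and the genotype could therefore not be checked from its transcript. A difference between the libraries cannot be told apart from a difference between any pair of pools.

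The atrial and B-type natriuretic peptides are hormones that heart muscle cells make and secrete. In vertebrates their genes are among the best known markers of stretched or overloaded myocardium. The peptides bind membrane receptors with guanylyl cyclase activity, which make cyclic GMP, and a separate clearance receptor removes them from the circulation. The transcription factors Nkx2.5, Tbx5, Gata4, Gata5 and Hand2 act together in the early heart, and in mammals several of them bind and activate the promoter of the atrial peptide gene. They are not confined to the heart: gata4 and gata5 are also used in the gut and liver, tbx5a in the pectoral fin, and hand2 in the pharyngeal arches, the fin and autonomic neurons.

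Both natriuretic peptide genes were higher in the mutant library, and none of the 5 factors was 2-fold apart. Of the 20256 genes at 1 FPKM or more in a library, 13.2% were 2-fold apart in either direction. With only 5 factors, nothing is read from their count against that share. The level of nppa, which encodes atrial natriuretic peptide, was 12.3 FPKM in wild-type siblings against 34.3 FPKM in mutant larvae, where FPKM is a fragment count normalised for transcript length and library depth. BX323876.2, the gene of the B-type peptide, was listed at 0 in wild-type siblings and reached 33.0 FPKM in mutant larvae. Among the factors, gata4 had the greatest difference, with 3.22 FPKM in siblings against 6.19 FPKM in mutants. With 1 library per genotype no test is possible, no value has an error, and the differences below are a description of these pools.

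**Figure D1:**
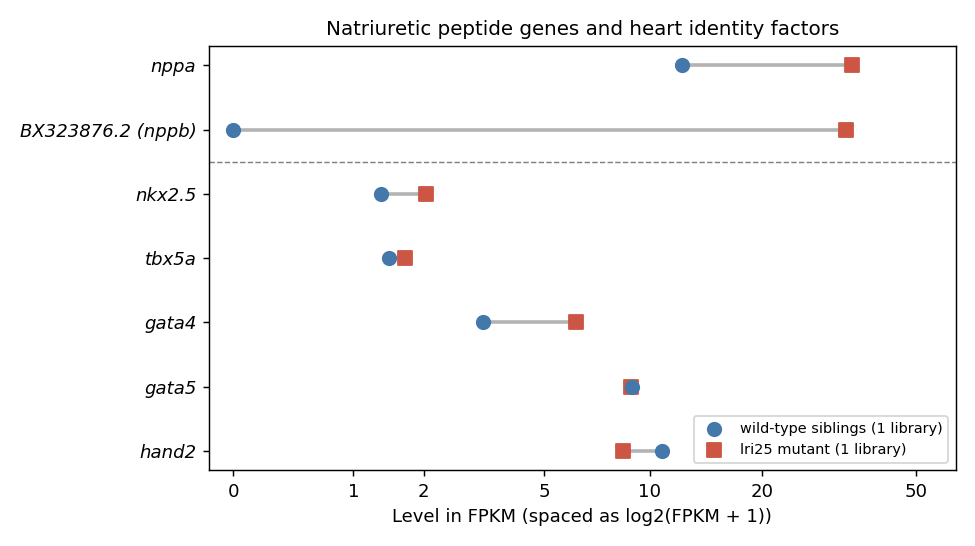
Level of each gene in FPKM (horizontal axis, spaced as log2(FPKM + 1)) in the wild-type library (circles) and the mutant library (squares), 1 library each. The peptide genes above the dashed line are at 34.3 and 33.0 FPKM in the mutant, against 12.3 FPKM and a listing at 0 in the wild type, while the pairs of points for the factors lie close together except for gata4.

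The peptide genes are neighbours. In build Zv9, nppa (ENSDARG00000052960) lies on chromosome 8 from 50771861 to 50776485, and BX323876.2 lies on the same chromosome from 50768418 to 50769006, with 2854 bases between them. Neither shares its listed locus with another gene, and the same held for all 7 genes. The plain ratio of mutant to wild-type FPKM was 2.79 for nppa. No ratio is given for BX323876.2, because a listing of exactly 0 may stand for an estimate that failed. In the mutant library the B-type gene stood at 0.963 times the level of nppa. Summed peptide FPKM came to 12.3 in siblings, which is nppa alone because of that 0, and 67.4 in mutants. The nearest measured genes on either side did not share this direction and size. The chloride transporter gene clcn6, which follows nppa, was at 2.13 and 2.85 FPKM, and zgc:195023, which precedes the B-type gene, was at 6.32 and 1.65 FPKM. Both neighbours were named after their values had been seen.

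Differences were set on the scale log2(FPKM + 1), mutant minus wild type, and genes with a difference of 1 or more in size were called higher or lower, which corresponds to 2-fold. All counts of genes past 2-fold are on this scale, where the added 1 FPKM shrinks the difference of low genes, while a fold printed beside a single gene is the plain ratio of its FPKM values. Of the 7 genes, all of which reached 1 FPKM in at least 1 library, 2 passed this limit upward and 0 downward. Of the 20256 genes at 1 FPKM or more in a library, 6.08% were higher by that limit and 7.12% lower, around a median of -0.01. The members were picked with these values known, so nothing is read from their count against that share. The difference of nppa was 1.41. In the class of 3710 genes that reached 20 but not 100 FPKM in their higher library, 82 had a difference as large or larger, or 2.21%. The gene entered that class through its mutant value and was picked with its values known, so nothing is read from this share. In the authors' deposited table, BX323876.2 has a p-value of 5e-05 and a q-value of 0.0133 and is 1 of 68 genes marked as significant. This p-value is the lowest given there and is shared by 55 genes. The mark for BX323876.2 rests on its listing at 0. Of the 68 marked genes, 8 were listed at 0 in the wild type, this gene among them, and 10 in the mutant. That table gives nppa a p-value of 0.0181 and a q-value of 0.821, not marked. Those p-values set 1 library against the other and hold no information on the spread between clutches or pools.

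The listing of BX323876.2 at 0 in the wild type was set beside the listings of other genes. Of 4195 genes at 20 FPKM or more in the mutant, 14 were listed at 0 in the wild type, and of 4134 genes at that level in the wild type, 6 were listed at 0 in the mutant. Its locus is short, at 589 bases. Among loci of 300 to 800 bp, 2 of 40 genes at 20 FPKM or more in the mutant were listed at 0 in the wild type, which includes this gene, and 1 of 40 the other way. BX323876.2 was picked with its 0 known and entered these classes through its mutant value, so nothing is read from these counts. Of 281 unshared loci of 500 to 700 bp, 189 were listed at 0 in siblings and 186 in mutants. Among the others the smallest non-zero level was 0.802 FPKM in siblings and 0.604 FPKM in mutants. The mutant value of BX323876.2 was 54.7 times that smallest mutant level. The gene was picked with this value known, so nothing is read from that ratio. Whether a failed estimate lies behind the 0 was not tested.

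The 5 factors lay on both sides of 0, from -0.32 to 0.77 with a median of 0.13, and 3 were above 0 and 2 below. The homeobox gene nkx2.5 (ENSDARG00000018004, chromosome 14, 25240905 to 25243698), one of the earliest genes of the heart field, stood at 1.34 FPKM in siblings and 2.03 FPKM in mutants. The T-box gene tbx5a (ENSDARG00000024894, chromosome 5, 75451438 to 75476894), needed for heart and pectoral fin formation, was at 1.46 and 1.68 FPKM. Both are near the lower limit of the comparison, and the authors' deposited table marks these 2 genes as not tested, against 5 members that it tested. For unshared loci of 1500 to 3000 bp, the range that holds nkx2.5 and hand2, the smallest non-zero level was 0.154 FPKM in siblings and 0.141 FPKM in mutants. A level near 1 FPKM may therefore rest on few fragments.

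The zinc finger genes gata4 and gata5, both regulators of heart muscle and endoderm, differed from each other. The level of gata4 (ENSDARG00000035759, chromosome 20, 53586307 to 53602069) was 1.92-fold higher in the mutant, a difference of 0.77 on the log2(FPKM + 1) scale. In the class of 8039 genes that reached 5 but not 20 FPKM in their higher library, 650 had a difference as large or larger, or 8.09%. Here too the class was entered through the mutant value of gata4, and nothing is read from this share. By contrast, gata5 (ENSDARG00000017821, chromosome 23, 7453293 to 7464593) gave 8.95 FPKM in siblings and 8.89 FPKM in mutants, a difference of -0.01 that was 0.02 after scaling both libraries to the same upper quartile. The bHLH gene hand2 (ENSDARG00000008305, chromosome 1, 38602513 to 38604378), required for myocardial growth, was at 10.8 and 8.43 FPKM, 1.28-fold lower in the mutant. The deposited table gives q-values of 0.996 for gata4, gata5 and hand2 in the authors' comparison. Summed over the 5 factors, FPKM came to 25.8 in siblings and 27.2 in mutants.

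The order of the members by level differed between the libraries. In the wild type it ran nppa, hand2, gata5, gata4, tbx5a, nkx2.5 and then BX323876.2, listed at 0. In the mutant it ran nppa, BX323876.2, gata5, hand2, gata4, nkx2.5, tbx5a. Without replicates it cannot be said which neighbours in either order differ beyond their spread, and the pairs gata5 with hand2 and nkx2.5 with tbx5a were close in both. Over all genes, 6415 stood at or above nppa in siblings and 2517 in mutants.

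**Figure D2:**
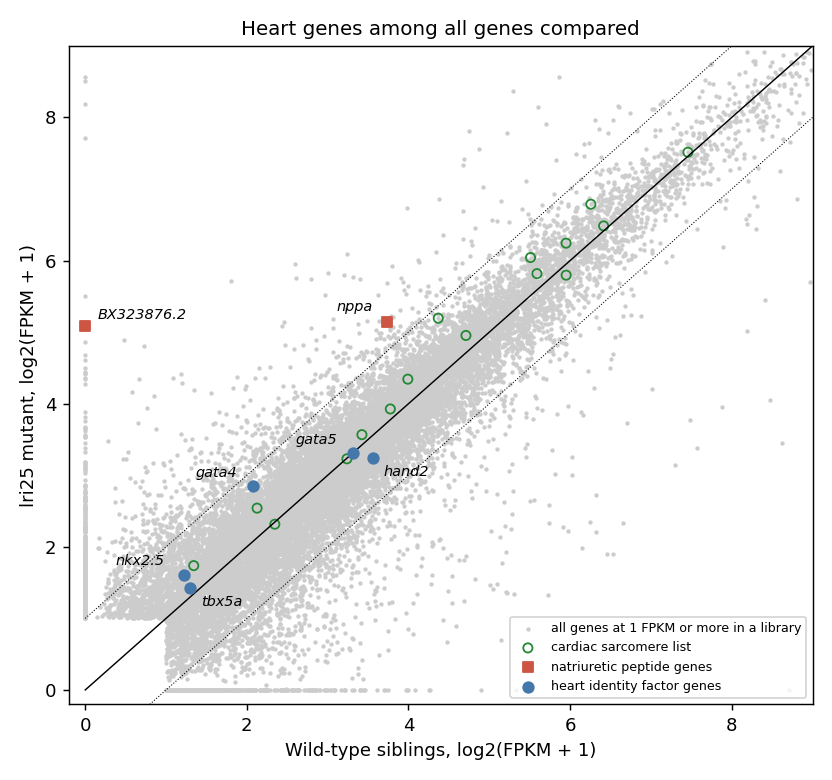
Level in the mutant (vertical axis) against the wild type (horizontal axis), both as log2(FPKM + 1), for all 20256 genes at 1 FPKM or more in a library (grey, axes cut at 9), with the peptide genes as squares, the factors as filled circles and the cardiac sarcomere list as open circles. The solid line marks equal levels and the dotted lines a difference of 1; nppa lies above the upper dotted line at 1.41, BX323876.2 on the left edge, and the 5 factors between the dotted lines.

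In whole larvae, more heart muscle cells and more RNA per cell cannot be told apart, so the peptide genes were set beside the contractile genes of the heart. Cardiac markers were present in both libraries. The myosin light chain gene myl7, a defining marker of zebrafish heart muscle, gave 44.6 FPKM in siblings and 64.9 FPKM in mutants, 1.46-fold higher. Of 16 cardiac sarcomere genes past 1 FPKM, 0 passed 2-fold in either direction, beside 13.2% of all genes. Of these 16 genes, 13 lay above 0, and their median was 0.24. Besides myl7, the largest differences in this list were those of the troponin I gene tnni1b, at 19.7 and 35.6 FPKM, and the tropomyosin gene tpm4a, at 75.5 and 109.5 FPKM. Some members of the list are also expressed in skeletal muscle.

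Per FPKM of myl7, nppa stood at 0.275 in siblings and 0.528 in mutants, a ratio 1.92-fold higher. Set against each of the 16 sarcomere genes in turn, the nppa ratio was between 1.54-fold and 3.12-fold higher in the mutant, the lowest against tnni1b and the highest against the titin gene ttnb. All 16 ratios use the same nppa values, known when the gene was picked, so nothing is read from their shared direction. Whether the number of heart muscle cells or the RNA per cell differed was not tested. The ratio of BX323876.2 to myl7 was 0.509 in the mutant. For gata4 the same ratio to the 16 genes was between 1.06-fold and 2.14-fold higher. For hand2 the mutant ratio was 0.431 to 0.870 times that of the wild type. The ratios of nkx2.5, tbx5a and gata5 lay on both sides of 1, from 0.839 to 1.69, from 0.636 to 1.29 and from 0.548 to 1.11 times the wild-type ratio.

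The rest of the natriuretic peptide system, measured in whole larvae and not in the heart alone, lay on both sides of 0. In a list of 13 measured ligand, receptor, processing and cyclic GMP genes outside the members, 10 lay above 0, with a median of 0.37. Of the 13 genes, 1 passed 2-fold upward and 2 downward, beside 6.08% and 7.12% of all genes. These counts depended on the settings: 3 were higher and 3 lower with 0.1 FPKM added, and 0 and 1 with 5 FPKM added. With shared loci left out, 1 was higher and 1 lower. The clearance receptor gene npr3 had 7.14 FPKM in siblings and 17.0 FPKM in mutants, 2.38-fold higher. The receptor genes of the atrial and B-type peptides lay in opposite directions: npr1a was at 0.987 and 2.32 FPKM, and npr1b, listed as NPR1 (1 of 2) and sharing its locus, had 5.10 and 1.80 FPKM. The C-type receptor gene npr2 was at 3.31 and 5.02 FPKM.

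The C-type ligand genes also lay apart. The C-type peptide gene nppcl, listed as wu:fj39g12, had 15.6 FPKM in siblings and 1.31 FPKM in mutants, 11.9-fold lower. Its paralogue nppc was at 2.26 and 3.47 FPKM. Among the proteases that mature such precursors in mammals, furina, which shares its locus, had 4.18 and 8.21 FPKM and furinb at 6.28 and 6.77 FPKM. The cyclic GMP-dependent kinase gene prkg1a was at 2.80 and 5.88 FPKM, and its paralogue prkg1b, at a shared locus, at 50.6 and 60.4 FPKM. The phosphodiesterase genes pde5aa and pde5ab, whose products break down cyclic GMP, were at 4.41 and 1.76 FPKM and at 2.69 and 3.77 FPKM. In this system npr1a, nppc, the furin genes, prkg1b and the phosphodiesterase genes were named after their values had been seen.

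**Figure D3:**
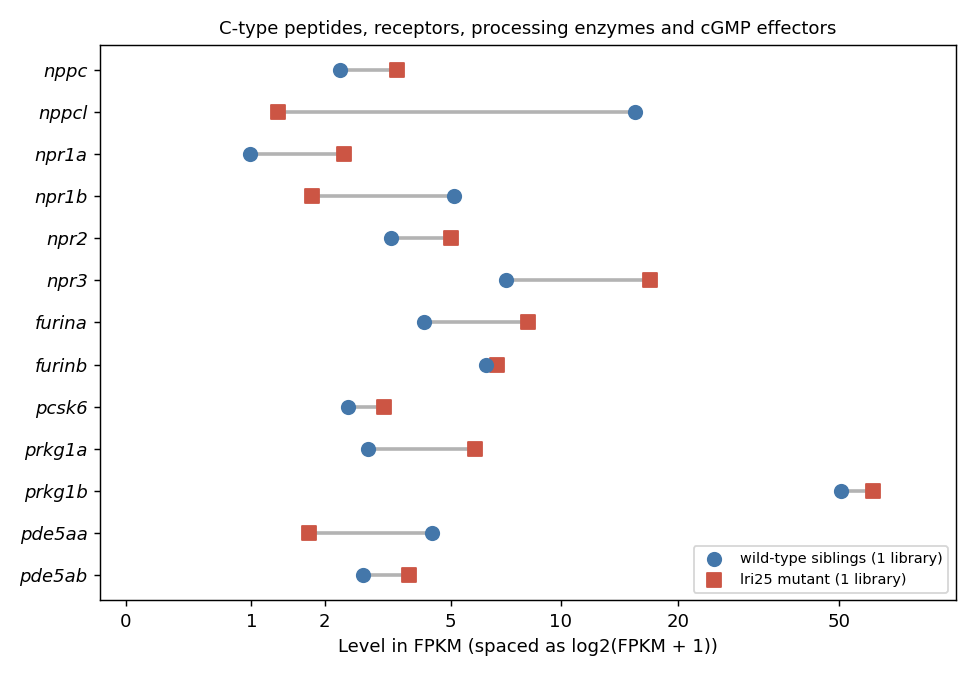
Level in FPKM (horizontal axis, spaced as log2(FPKM + 1)) of the 13 measured genes of the natriuretic peptide system outside the members, by their current symbols, in the wild-type library (circles) and the mutant library (squares). The widest gap is that of nppcl, at 15.6 and 1.31 FPKM, and npr3 lies higher in the mutant at 17.0 against 7.14 FPKM.

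Other heart transcription factors, measured in whole larvae and not in the heart alone, had a median below 0. Of 19 measured, 0 passed 2-fold upward and 2 downward, beside 6.08% and 7.12% of all genes. In this list 14 genes lay below 0, and the median was -0.18. The lower genes were isl1, a factor of the second heart field and of many neurons, at 26 and 10.04 FPKM, and zfpm2a, which encodes a cofactor of Gata proteins, at 11.1 and 1.6 FPKM. The third gene in size of difference was mef2aa, a muscle factor at a shared locus, with 10.5 and 6.25 FPKM. The related genes gata6 and nkx2.7 were listed at 0 in both libraries, so the Gata and Nkx families were seen in part.

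Of 16 genes linked to cardiac load, 0 passed 2-fold upward and 2 downward, beside 6.08% and 7.12% of all genes, and the median was -0.08. The count of 2 lower genes was 1 with a pseudocount of 5 or with shared loci left out. Some members of this list are also expressed in skeletal muscle, so their levels in whole larvae are not those of the heart alone. The ankyrin repeat gene ankrd1b, a stretch-responsive gene of striated muscle in mammals, was at 64.0 and 8.51 FPKM at a shared locus, and the LIM domain gene fhl2b at 15.9 and 5.94 FPKM. Their paralogues were not 2-fold apart, ankrd1a at 2.04 and 1.78 FPKM and fhl2a at 58.0 and 46.8 FPKM. Both paralogues were named after their values had been seen. The adrenomedullin gene adma, which encodes a vasodilator peptide, was at 6.43 and 12.8 FPKM. In the list of 11 cardiac calcium and excitation genes, 0 passed 2-fold on the log2(FPKM + 1) scale and the median was 0.13. Its largest differences were those of the sodium-calcium exchanger slc8a1a, at 0.620 and 1.88 FPKM, a plain ratio of 3.03, the calcium channel gene cacna1c, at a shared locus with 2.05 and 1.12 FPKM, and the gap junction gene gja3, at 1.04 and 1.81 FPKM.

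**Figure D4:**
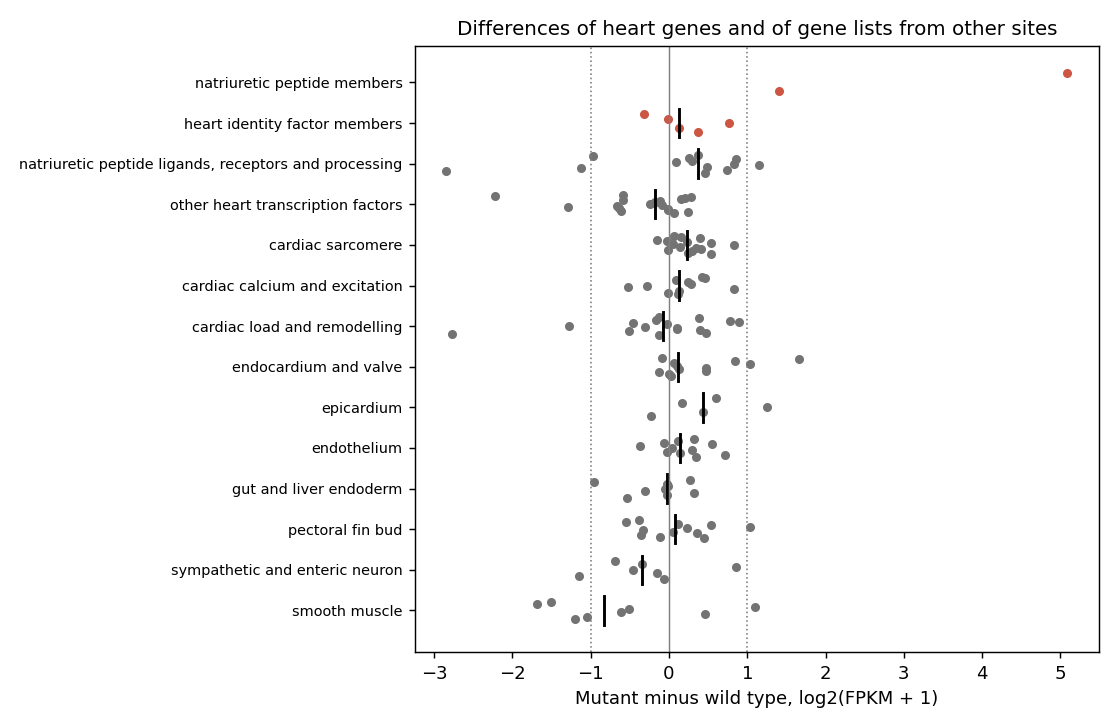
Difference between the libraries (mutant minus wild type, log2(FPKM + 1), horizontal axis) for each gene of the members (red) and of the 12 gene lists (grey), 1 point per gene at 1 FPKM or more in a library. Vertical bars are medians, not drawn for the 2 peptide genes, and dotted lines mark a difference of 1; the factor median is 0.13 and the sarcomere median 0.24.

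Because the factors are used outside the heart, markers of those sites were read beside them. Of all genes at 1 FPKM or more in a library, 6.08% were at least 2-fold higher and 7.12% lower. In the gut and liver endoderm list, which bears on gata4 and gata5, 0 of 9 genes passed 2-fold on the log2(FPKM + 1) scale and the median was -0.02. The list held prox1a at 8.59 and 3.94 FPKM, a plain ratio 2.18-fold lower, foxa1 at 7.55 and 4.88 FPKM and foxa3 at 5.40 and 6.997 FPKM. In the pectoral fin list, which bears on tbx5a and hand2, 1 of 12 was at least 2-fold higher, hoxd13a at 0.808 and 2.71 FPKM. That count was 0 with a pseudocount of 5 or a floor of 5 FPKM. The median of this list was 0.08, with msxb at 10.8 and 16.02 FPKM and dlx2a at 7.07 and 4.51 FPKM. Sympathetic and enteric neuron genes, which bear on hand2, had a median of -0.34, with 6 of 7 below 0. Of the 7 genes, 0 were at least 2-fold higher and 1 lower, a gene listed at 0 in mutants. That count of 1 was 0 with a pseudocount of 5 or a floor of 5 FPKM. In that list phox2ba had 1.22 FPKM in siblings and was listed at 0 in mutants, dbh was at 1.43 and 3.41 FPKM and ret at 5.76 and 3.18 FPKM. How far these sites contribute to the levels of the factors was not tested.

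Genes whose pair of values lay closest to each member were sought among 138 genes of the lists, by the distance between the log2(FPKM + 1) values of the 2 libraries. Closest to nppa were tnni1b at a distance of 0.64 and aldh1a2 at 0.81. No listed gene lay near BX323876.2, whose closest neighbours were prkg1a at 3.01 and wt1b at 3.03. The nearest genes to gata4 were prkg1a at 0.16 and npr2 at 0.26, and those to gata5 were the ventricular myosin gene vmhc at 0.11 and tnnc1a at 0.28. Those of hand2 were tbx2a at 0.21 and tbx1 at 0.29. Those of nkx2.5 were fli1b at 0.10 and zfpm1 at 0.13, and those of tbx5a were edn1 at 0.11 and myocd at 0.18. With 2 libraries such closeness describes levels only.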

How the data were processed

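The levels analysed are FPKM values in 1 deposited table, with 1 column per library, matched to the labels by the codes for wild type and mutant in the table. Per the submitters' processing notes, build Zv9, CASAVA and Bowtie were used; no source used here states their settings or the program behind the FPKM. The p-value and q-value of each gene are the authors' own and were copied from the deposited table. Total fragments per library are unknown. Summed FPKM was 830273 in siblings and 824184 in mutants, and 18975 and 18791 genes reached 1 FPKM.

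Differences are log2((mutant + 1)/(wild type + 1)), a pseudocount of 1 FPKM that understates low genes, over genes at 1 FPKM or more in a library. Genes were matched by the second identifier column and symbol, and 6 of 7 members' identifiers were found in a reference table. Locus starts were read as counted from 0, because among 12664 genes compared with RefSeq lengths (assembly GRCz12tu) 485 fitted that and 76 a start from 1, and they are written 1-based. Of 160 list entries, 149 were matched, 144 by symbol and 5 by identifier or synonym. The members and lists were chosen with earlier results of these data known. Named by rule were the members, the 3 list genes with the largest difference, every list gene 2-fold apart, and the 2 nearest genes to each member. The calling step was run on wild-type values with known changes put into some genes and no noise added. That checks the arithmetic of the step only, not the calls made here. Python 3.11.15, numpy 2.4.6 and pandas 2.3.3 were used.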

Additional observations from a re-analysis of the deposited data

How the results depend on the processing

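The count of 2 members at least 2-fold higher was obtained under all 8 alternatives (pseudocounts of 0.1 and 5, no floor, a floor of 5 FPKM, 3 scalings, and shared loci left out). Most of these could not change it. Both peptide genes pass each floor and have their own loci, so those settings left their differences unchanged. The 3 scalings shifted log2 levels by 0.027 or less, and only the pseudocounts could have moved the count. The nppa difference ranged from 1.19 with a pseudocount of 5 to 1.48 with 0.1, and that of BX323876.2 from 2.93 to 8.37 under the same settings. The factor median was -0.00897 with a floor of 5 FPKM, which leaves 3 factors. Over all genes, 1866 genes were higher and 2219 lower at a pseudocount of 0.1. At a pseudocount of 5 these counts were 296 and 361, and with a floor of 5 FPKM 612 and 721, against 1232 and 1442. Of 192 recomputed list counts, 173 were within 1.5 times and 19 moved. Leaving out the floor could not change a list count, and the scalings shifted levels little, so nothing is read from the 173. No paired analysis was possible because each genotype has 1 library and the result comes from no test; for the same reason no replicate could be left out. Depth is unknown, which limits nkx2.5, tbx5a and other genes near 1 FPKM.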

Other observations

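In the smooth muscle list, 6 of 8 genes lay below 0. Smooth muscle lies in vessel and gut walls, but the levels of these genes in whole larvae are not those of such walls alone. Of the 8 genes, 4 passed 2-fold downward and 1 upward, beside 7.12% and 6.08% of all genes, with a median of -0.83. The smooth muscle actin gene acta2 had 152.8 FPKM in siblings and 65.8 FPKM in mutants, and the actin-binding gene tagln was at 66.0 and 31.5 FPKM. The smoothelin gene smtnb was at 18.7 and 5.90 FPKM. The desmin genes differed in direction, desmb at 15.7 and 4.2 FPKM and desma, which is also a skeletal and heart muscle gene, at 128.5 and 277.3 FPKM.

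Of all genes at 1 FPKM or more in a library, 6.08% were at least 2-fold higher and 7.12% lower. The lists below are named for other layers of the heart and vessels, but their levels in whole larvae are not those of these layers alone. In the endocardium and valve list, 2 of 12 genes were at least 2-fold higher and 0 lower, with a median of 0.12. These were the fibronectin gene fn1b, at 42.8 and 137.8 FPKM at a shared locus, and the versican gene vcana. The latter was listed at 0 in siblings and at 1.05 FPKM in mutants. The count of 2 higher genes was 1 with a pseudocount of 5, with a floor of 5 FPKM, or with shared loci left out. The second fibronectin gene fn1a was at 6.28 and 12.0 FPKM. The flow-responsive endothelial factor klf2a, named after its values were seen, was at 51.3 and 52.1 FPKM. Among 5 epicardial genes 1 was at least 2-fold higher, wt1b at 0.953 and 3.66 FPKM, with aldh1a2 at a shared locus at 22.2 and 34.3 FPKM and wt1a at 1.95 and 2.995 FPKM. In the endothelial list 0 of 11 genes passed 2-fold on the log2(FPKM + 1) scale, with kdr at 1.10 and 2.45 FPKM, a plain ratio of 2.23, erg at 1.13 and 2.10 FPKM and tek, at a shared locus, at 1.6 and 1.01 FPKM.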
